A study of Mus musculus with 6 samples.

Results

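The 41 genes described here act in G2 phase and mitosis: mitotic kinases, cyclins, kinesins, spindle checkpoint and centromere genes, and the factors that end mitosis. They were chosen by gene symbol, and all 41 were found among the 23268 genes of the table. Full-length cDNA was sequenced from group 2 innate lymphoid cells (ILC2s), tissue-resident lymphocytes known for type 2 cytokines, sorted from the mouse colon. The control group, C57BL/6 mice 6 to 8 weeks old, drank water for 6 days, and the DSS group, of the same strain and age, received 3% dextran sulfate sodium (DSS), which damages the epithelium of the colon and gives colitis. Each group had 3 libraries. The labels do not say whether a library came from 1 mouse or a pool, so the p-values reflect only how far these samples scatter, and that scatter may be technical. The comparison is of DSS against water, and is described here for the mitotic genes.

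Entry into mitosis depends on the kinase CDK1 bound to a cyclin A or B. Aurora and Polo-like kinases then build the spindle, and checkpoint proteins hold back the anaphase-promoting complex until every chromosome is attached. That complex, with its activator CDC20 and its ubiquitin-loading enzyme UBE2C, destroys securin (Pttg1) and cyclin B, which frees separase (Espl1) to split the sister chromatids. Many of these genes are transcribed late in the cycle by complexes that bind CHR and CCAAT elements in their promoters. Tissue-resident ILC2s at rest are known to divide slowly and to expand when alarmins activate them.

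Of 36 mitotic genes tested for a difference between DSS and control, 0 passed, and these genes did not share a direction. Levels are FPKM (fragments scaled to gene length and library size, so genes can be compared per length), as mean ± SD of 3 libraries, control first. A log2 change is the DSS mean of log2(FPKM + 1) less the control mean, a scale on which differences of low genes come out too small. Of the 41 members, 36 had a mean of at least 1 FPKM over the 6 libraries and were tested. By limma with Benjamini-Hochberg adjustment over 12187 genes, 0 of 36 had an adjusted p under 0.05, where 0.222% of all genes tested did (0.0738% higher and 0.148% lower). With so few genes passing anywhere, 0 of 36 does not set the members apart from other genes. At an unadjusted p under 0.05 there were 3 members, Ccna2 and Kif23 lower and Ube2c higher, where 8.99% of all genes were. With limma voom on whole fragments 0 members passed (0.148% of all genes did), and 3 had an unadjusted p under 0.05 (9.71% of all genes did), these being Ccna2, Top2a and Kif23. Of the 36, 19 had a higher mean log2 value in DSS and 17 a lower one. Over all genes tested, 46.9% had a lower one. The median log2 change was 0.04 for the members and 0.03 for all genes tested. Of the 11 members averaging at least 5 FPKM, 7 were lower (median −0.23). Of the 25 averaging 1 to 5 FPKM, 10 were lower and 15 higher (median 0.06). In RNA from a whole sorted population, fewer dividing cells and less of a transcript per cell cannot be told apart.

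Libraries differed in ways that touch weakly expressed members. Whole fragments recovered from the FPKM values numbered 9962415 (DSS replicate 3) to 23119390 (control replicate 1) per library, and the members held 7199 to 15145 of them. The median FPKM over all 23268 genes was 2.61 in DSS replicate 3 and 1.64 in control replicate 3, against 0.398 to 0.777 in the other 4 libraries. Olfactory receptor genes (1096 in the table), which lymphocytes are not known to use, averaged 0.964 and 0.582 FPKM in these 2 libraries and 0.0343 to 0.183 in the others. Results below are therefore also given without the 2 libraries numbered 3.

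In 5 members the 3 DSS libraries lay wholly on one side of the 3 control libraries. Kif23, Top2a, Ccna2 and Bub3 were below, or 4 of 36 tested (11.1%, where 9.6% of all genes tested were), and Ube2c was above (2.78%, where 6.35% were). Both shares are close to or under those of all genes and are read only as a description of these libraries. Counts and all-gene shares both moved with single libraries. Without control replicate 2, 8 members lay below (22.2% of those tested, where 11.6% of all genes tested did). Without DSS replicate 3, 9 of 32 lay below (28.1%, where 21.8% did) and 3 above (9.38%, where 11.6% did). Above were also 5 without control replicate 3 (14.3%, where 16.2% were) and 3 without DSS replicate 2 (8.33%, where 11.4% were). Without DSS replicate 3, 0 members passed (0.138% of all genes did).

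**Figure D1:**
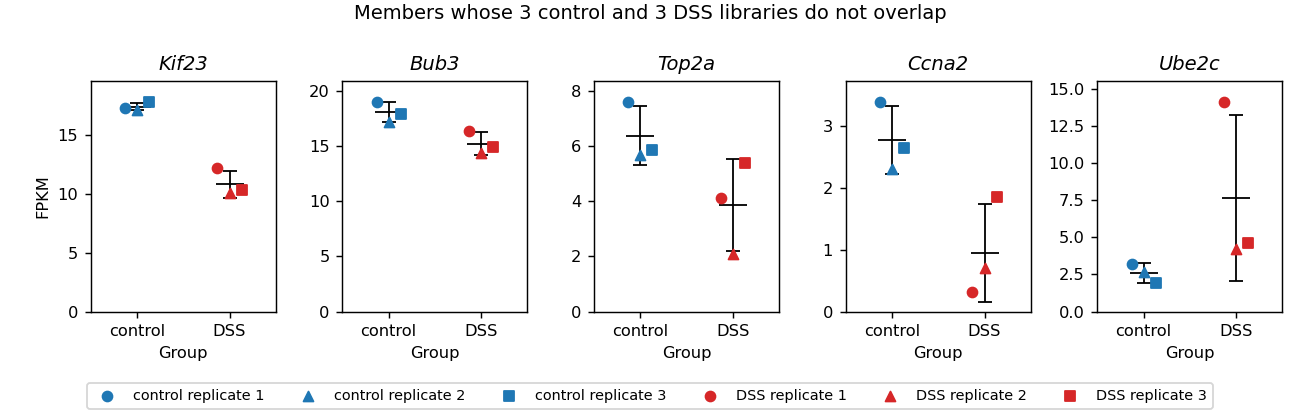
FPKM (vertical axes, from 0) of 5 genes in control and DSS libraries (horizontal axis), with 1 point per library, a dash at the group mean and bars of 1 SD. The 3 control libraries of Kif23 sit between 17.1 and 17.8 and the DSS libraries between 10.1 and 12.2, while the high Ube2c value of 14.1 belongs to DSS replicate 1 alone.

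Kif23 encodes MKLP1, the kinesin that with Racgap1 forms the centralspindlin complex and bundles the spindle midzone for cytokinesis. It lies on chromosome 9 (mm10, 61915905 to 61946774, minus strand) and shares no exonic base with another annotated gene. It measured 17.3, 17.1 and 17.8 FPKM in control replicates 1, 2 and 3, and 12.2, 10.1 and 10.3 in DSS replicates 1, 2 and 3. The control libraries thus lay within 1 FPKM of each other and the DSS libraries clearly below. The mean was 17.4 ± 0.321 and 10.8 ± 1.17, or 1.61-fold lower in DSS (log2 change −0.64 ± 0.20 SE, limma adjusted p = 0.303). These values rest on 352 to 1378 fragments per library. Without DSS replicate 1 Kif23 passed (limma adjusted p = 0.0303, where 3.47% of all genes tested passed). In the other 5 fits that left out 1 library it did not. With library weights updated gene by gene, an alternative chosen after seeing the data, Kif23 and Top2a passed, where 5.21% of all genes did. With library weights by REML, whose estimate did not converge, 12 members passed, 10 lower and 2 higher, where 27% of all genes passed and 38.4% had an unadjusted p under 0.05.

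Top2a encodes topoisomerase II alpha, which untangles sister DNA before segregation. It lies on chromosome 11 (98992943 to 99024189, minus strand) and shares 122 exonic bases with Gm23451 on the same strand. The control libraries measured 7.60, 5.67 and 5.85 FPKM and the DSS libraries 4.13, 2.09 and 5.39. DSS replicate 3 came close to the lowest control, and DSS replicate 2 was lowest. The mean was 6.38 ± 1.07 and 3.87 ± 1.66 (log2 change −0.65 ± 0.31 SE, limma adjusted p = 0.585).

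Ccna2 encodes cyclin A2, the partner of CDK1 and CDK2 from S phase to early mitosis. It lies on chromosome 3 (36564865 to 36572150, minus strand). It measured 3.38, 2.30 and 2.63 FPKM in control and 0.315, 0.703 and 1.84 in DSS, the lowest of these in DSS replicate 1 with 14 fragments. Its mean was 2.77 ± 0.551 and 0.951 ± 0.791, or 2.91-fold lower in DSS (log2 change −1.02 ± 0.42 SE, limma adjusted p = 0.486). Ccna2 shares 510 exonic bases with Exosc9 on the opposite strand, and the library kit does not mark strand. Exosc9 itself had means of 5.25 ± 0.142 and 3.83 ± 1.35.

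Bub3, a spindle checkpoint protein that recruits BUB1 and BUBR1 to kinetochores, lies on chromosome 7 (131560222 to 131571895, plus strand). It measured 19.0, 17.2 and 17.9 FPKM in control and 16.4, 14.4 and 14.9 in DSS. The groups did not overlap, but the distance was small, with means of 18.1 ± 0.913 and 15.2 ± 1.04 (log2 change −0.23 ± 0.19 SE, limma adjusted p = 0.811).

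Ube2c encodes the E2 enzyme that loads ubiquitin for the anaphase-promoting complex. It lies on chromosome 2 (164769898 to 164778822, plus strand). It measured 3.2, 2.65 and 1.92 FPKM in control and 14.1, 4.21 and 4.61 in DSS. DSS replicate 1 held 462 fragments, and the other DSS libraries lay just above the highest control. Its mean was 2.59 ± 0.642 and 7.63 ± 5.58, or 2.94-fold higher in DSS (log2 change 1.1 ± 0.40 SE, limma adjusted p = 0.415). Without DSS replicate 1 the log2 change was 0.61 and without DSS replicate 2 it was 1.37. Ube2c shares 592 exonic bases with Tnnc2 on the opposite strand, and Tnnc2 was at 0 in DSS replicate 1 and at 1.56 FPKM in DSS replicate 3.

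The promoters of these genes share letters that the choice of members did not use. RefSeq promoters (GRCm38.p6, the build of mm10, 250 bases before to 50 after the start) matched 34 of the 41 members by symbol. The CHR was searched as TTTGAA or TTCGAA and the CCAAT box as CCAAT, on both strands, with no overlap between these motifs required or barred. A CHR was found in 26 of 34 members (76.5%) and in 18.4% of the 16647 genes of the table that have such a promoter. CCAAT was found in 26 of 34 members (76.5%) and in 42.3% of those genes. Both were found in 23 members (67.6%) and in 7.7% of those genes. Neither was found in 5 members, Pttg1, Birc5, Nuf2, Nusap1 and Mad2l1. For Pttg1 the stretch searched (chromosome 11, 43425932 to 43426231) lies inside the annotated gene (43420250 to 43426251, minus strand). The bases before the outer start of that gene were therefore not searched. The same holds for Kif2c and Kif4, which are counted among the members with a CHR. A match is a description of letters and not a shown binding site.

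The promoters below belong to the 4 separated members that have one, and to Cks2 and Pttg1, the 2 most abundant members. In the stretches searched for these 2 no CHR was found. Each promoter below runs 5′ to 3′ along the gene's strand from 150 bases before to 30 bases after the listed start, with CHR and CCAAT letters of either strand in capitals. ATTGG is CCAAT on the other strand, and TTCAAA is TTTGAA on the other strand.
Kif23, chr9:61946770-61946949, minus strand: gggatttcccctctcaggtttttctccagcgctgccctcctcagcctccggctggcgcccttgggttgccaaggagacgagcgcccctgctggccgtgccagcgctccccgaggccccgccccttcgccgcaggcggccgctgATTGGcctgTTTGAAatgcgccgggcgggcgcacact
Top2a, chr11:99024160-99024339, minus strand: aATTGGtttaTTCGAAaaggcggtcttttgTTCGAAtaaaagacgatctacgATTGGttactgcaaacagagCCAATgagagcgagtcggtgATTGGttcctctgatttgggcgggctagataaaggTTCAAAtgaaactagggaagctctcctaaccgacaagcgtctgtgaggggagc
Bub3, the first of its 2 listed starts, chr7:131560220-131560399, plus strand: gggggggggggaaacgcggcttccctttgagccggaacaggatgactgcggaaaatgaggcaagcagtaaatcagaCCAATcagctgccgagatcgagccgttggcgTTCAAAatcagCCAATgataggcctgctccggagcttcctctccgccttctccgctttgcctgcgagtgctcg
Ube2c, chr2:164769779-164769958, plus strand: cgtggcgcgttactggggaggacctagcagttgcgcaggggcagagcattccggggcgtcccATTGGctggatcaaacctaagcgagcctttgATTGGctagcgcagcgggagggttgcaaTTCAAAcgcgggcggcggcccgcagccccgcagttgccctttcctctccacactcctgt
Cks2, chr13:51645082-51645261, plus strand: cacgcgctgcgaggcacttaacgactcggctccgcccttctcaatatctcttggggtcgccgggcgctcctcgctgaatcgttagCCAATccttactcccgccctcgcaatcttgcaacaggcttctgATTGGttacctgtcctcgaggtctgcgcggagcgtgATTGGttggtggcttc
Pttg1, chr11:43425952-43426131, minus strand: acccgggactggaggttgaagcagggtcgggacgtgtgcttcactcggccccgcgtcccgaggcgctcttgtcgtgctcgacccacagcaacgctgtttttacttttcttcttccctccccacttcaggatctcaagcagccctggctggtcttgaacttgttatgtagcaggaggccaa
In Kif23 the CHR starts at base 3 of the transcript with a CCAAT box just before it, and in Top2a 3 CHRs and 4 CCAAT boxes fall in the stretch shown. Bub3 and Ube2c hold 1 CHR and 2 CCAAT boxes each.

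The level of a member differed far more between genes than between groups. Cks2 and Pttg1 were the most abundant, followed by Cenpa, Bub3, Kif23, Cks1b and Incenp, and 11 members had a mean of at least 5 FPKM. A further 25 had a mean of 1 to 5 and 5 had one below 1 (Bub1, Nuf2, Anln, Kif4 and Cenpf). The proliferation marker Mki67 was in the middle class. No member was at 0 in any library.

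**Figure D2:**
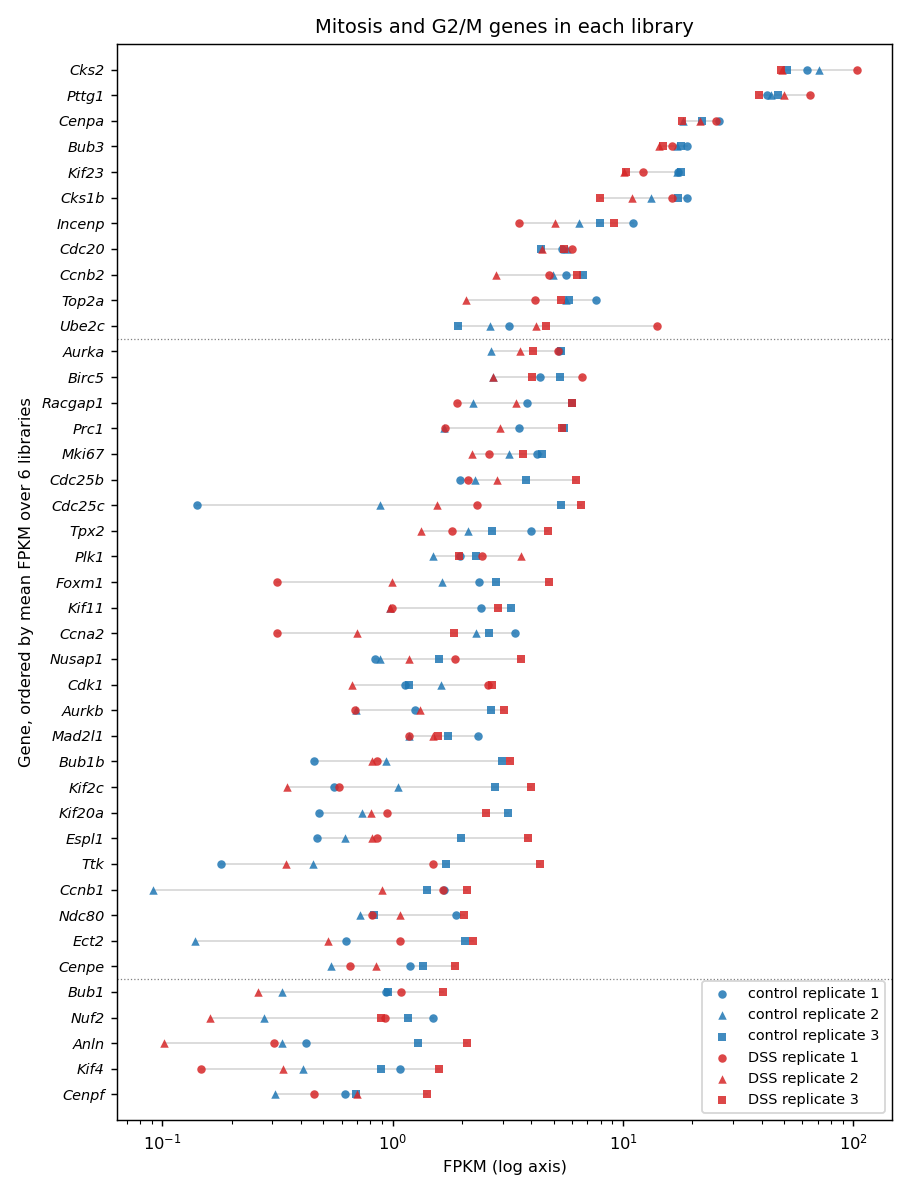
FPKM (horizontal log axis) of the 41 genes (vertical axis, ordered by mean) with 1 point per library, coloured by group and shaped by replicate number. The dotted lines mark means of 1 and 5 FPKM, and most weak genes below the upper line have a library numbered 3 (squares) at the right.

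Among cyclins, CDK1 and its partners, Ccna2 had the lowest DSS to control ratio. Cks2, which encodes a small CDK-binding subunit, measured 62.7, 70.8 and 51.3 FPKM in control and 104, 49.1 and 48.6 in DSS. DSS replicate 1 was the highest library and the other 2 DSS libraries the lowest, with a log2 change of 0.05 ± 0.30 SE. Its paralog Cks1b, also needed for destruction of the CDK inhibitor p27, measured 18.9, 13.2 and 17.4 in control and 16.4, 10.9 and 7.93 in DSS (−0.50 ± 0.28 SE). Ccnb2, a cyclin B, measured 5.67, 4.97 and 6.72 in control and 4.75, 2.82 and 6.34 in DSS (−0.31 ± 0.29 SE). The other cyclin B gene, Ccnb1, measured 1.67, 0.0906 and 1.41 in control and 1.66, 0.900 and 2.11 in DSS. The low control value rests on 4 fragments, and without that library the Ccnb1 log2 change was −0.02 in place of 0.39. Cdk1 itself measured 1.31 ± 0.272 and 1.98 ± 1.14, with DSS replicates 1 and 3 above all controls and DSS replicate 2 below them. The CDK1-activating phosphatase genes Cdc25b (2.67 ± 0.977 and 3.75 ± 2.22) and Cdc25c (2.13 ± 2.83 and 3.47 ± 2.68) overlapped between groups. Cdc25c had 0.141 FPKM in control replicate 1 and 5.37 and 6.54 in the 2 libraries numbered 3, a wider span than between the groups.

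The mitotic kinases did not separate the groups either. Aurka, the centrosomal Aurora kinase, measured 4.45 ± 1.55 and 4.28 ± 0.842 FPKM. Aurkb, the kinase of the chromosomal passenger complex, measured 1.54 ± 1.02 and 1.68 ± 1.22. Plk1, the Polo-like kinase of mitotic entry, measured 1.95, 1.49 and 2.30 in control and 2.43, 3.60 and 1.94 in DSS (log2 change 0.31 ± 0.33 SE). DSS replicates 1 and 2 were above all controls and DSS replicate 3 among them. The checkpoint kinase gene Ttk ran from 0.179 in control replicate 1 to 4.35 in DSS replicate 3, and Bub1 measured 0.742 ± 0.357 and 1.00 ± 0.700.

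Of the checkpoint and kinetochore genes, Cenpa, the centromeric histone H3 variant, had nearly equal means of 22.1 ± 3.92 and 21.6 ± 3.65 FPKM (log2 change −0.03 ± 0.22 SE). Incenp, the scaffold of the chromosomal passenger complex, measured 11, 6.43 and 7.91 in control and 3.54, 5.07 and 9.10 in DSS. DSS replicates 1 and 2 were below all controls and DSS replicate 3 was among them (−0.50 ± 0.33 SE). Birc5, the survivin subunit of the same complex, measured 4.13 ± 1.32 and 4.48 ± 2.00 and was highest in DSS replicate 1 at 6.66. Mad2l1, which forms the inhibitor of CDC20, measured 1.76 ± 0.585 and 1.41 ± 0.205, and Bub1b, which encodes BUBR1, 1.46 ± 1.34 and 1.63 ± 1.39. The outer kinetochore genes Ndc80 (1.15 ± 0.646 and 1.31 ± 0.640) and Nuf2 (0.975 ± 0.626 and 0.659 ± 0.432) overlapped. The kinetochore motor gene Cenpe (1.03 ± 0.432 and 1.12 ± 0.652) and Cenpf (0.540 ± 0.204 and 0.853 ± 0.494) overlapped as well.

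All 4 genes of anaphase and protein destruction had a higher mean log2 value in DSS, and 0 passed. Cdc20 turned lower in 7 of 20 alternatives: with equal totals, both kinds of library weights, voom, without control replicate 3, without DSS replicate 1 and without both libraries numbered 3. Pttg1 turned without DSS replicate 1. Pttg1, which encodes the separase inhibitor securin, measured 42.3, 43.9 and 46.9 FPKM in control and 64.9, 50.1 and 39.1 in DSS. DSS replicates 1 and 2 were above all controls and DSS replicate 3 below them (log2 change 0.18 ± 0.22 SE). Cdc20, the activator of the anaphase-promoting complex, measured 5.17 ± 0.685 and 5.34 ± 0.792 (0.04 ± 0.23 SE). Espl1, which encodes separase, measured 1.02 ± 0.832 and 1.84 ± 1.75, with 3.87 in DSS replicate 3 and at most 0.851 in the other DSS libraries.

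Among kinesins and spindle genes other than Kif23, Tpx2, which activates Aurora A on the spindle, measured 3.97, 2.12 and 2.70 FPKM in control and 1.8, 1.32 and 4.72 in DSS. It was lower than every control in DSS replicates 1 and 2 and higher than every control in DSS replicate 3. Nusap1, a microtubule-bundling protein, measured 1.1 ± 0.424 and 2.22 ± 1.24 (log2 change 0.56 ± 0.43 SE). Kif11, the motor that pushes spindle poles apart, measured 2.22 ± 1.15 and 1.61 ± 1.08, and Prc1, the midzone crosslinker, 3.57 ± 1.92 and 3.35 ± 1.91. Kif2c, a microtubule depolymerase, measured 1.46 ± 1.16 and 1.64 ± 2.03. Kif20a (1.46 ± 1.48 and 1.43 ± 0.959) and the chromokinesin Kif4 (0.794 ± 0.348 and 0.690 ± 0.784) overlapped too. On the opposite strand Kif20a shares 1271 exonic bases with Cdc23, Prc1 911 with Rccd1 and Kif4 832 with Pdzd11. Over the 6 libraries Pdzd11 averaged 15.2 FPKM and Kif4 0.742. The part of such neighbours in these values was not tested. The cytokinesis genes Racgap1 (4.02 ± 1.9 and 3.78 ± 2.07), Ect2 (0.942 ± 0.999 and 1.28 ± 0.871) and Anln (0.678 ± 0.529 and 0.838 ± 1.1) had their 2 highest values in the libraries numbered 3. Kif23, the partner of Racgap1, did not share this order.

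Mki67, which encodes the Ki-67 protein that coats mitotic chromosomes and marks cycling cells, measured 4.22, 3.2 and 4.46 FPKM in control and 2.61, 2.2 and 3.67 in DSS. DSS replicates 1 and 2 were below every control and DSS replicate 3 lay among them. The mean was 3.96 ± 0.668 and 2.83 ± 0.759 (log2 change −0.38 ± 0.28 SE, limma adjusted p = 0.774). Foxm1, a transcription factor that drives G2 and mitotic genes, measured 2.37, 1.64 and 2.82 in control and 0.315, 0.996 and 4.79 in DSS. It thus had its lowest and its highest values in the same group.

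**Figure D3:**
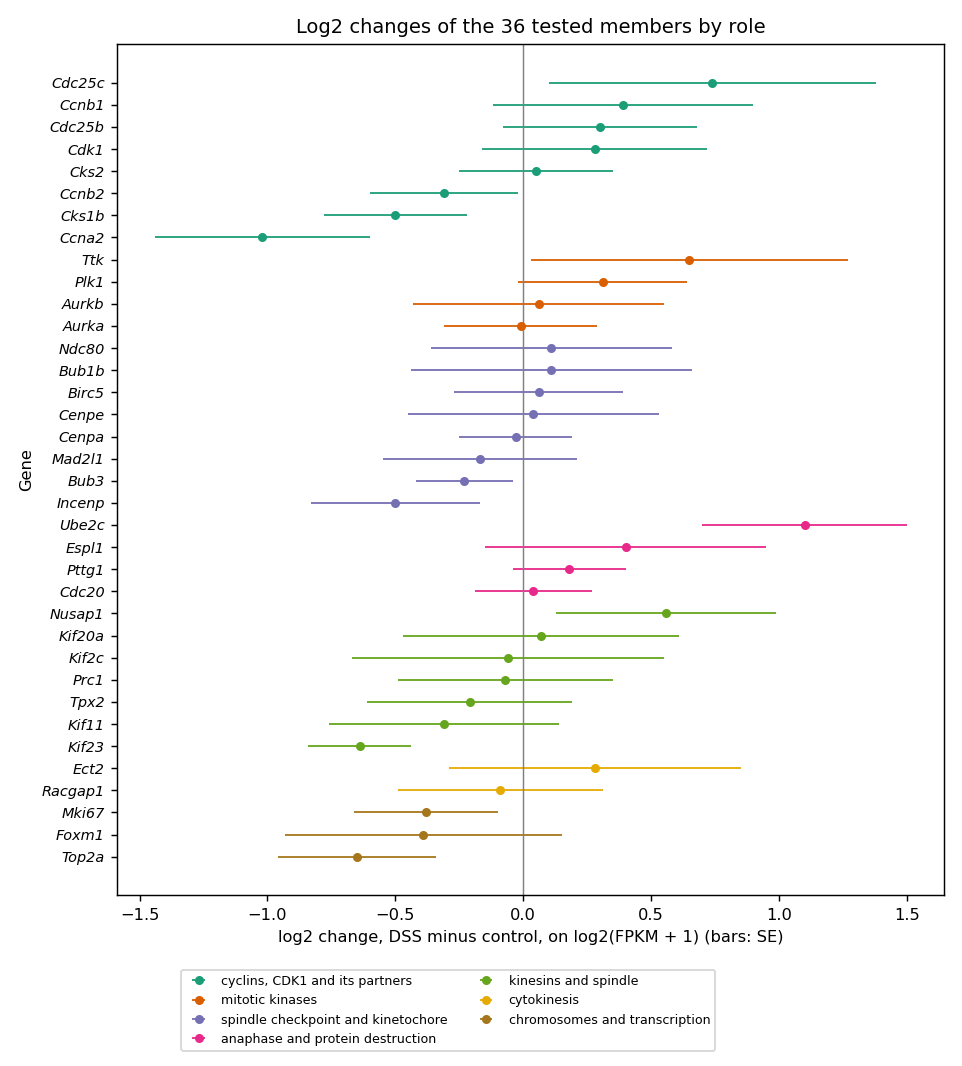
Log2 change (horizontal axis, DSS minus control on log2(FPKM + 1), bars of 1 SE) of the 36 tested genes (vertical axis), coloured by role. Ccna2 at −1.02 and Ube2c at 1.1 are at the ends, and most bars cross or come near 0.

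The order of the libraries depended on how strongly a gene was expressed. DSS replicate 3 was the highest library for 19 of the 41 members and control replicate 3 for 8. Among the 25 members with a mean of 1 to 5 FPKM, 1 of these 2 libraries was highest in 21 and in 0 was either of them lowest. Among the 11 members with a mean of at least 5 they were highest in 2 and lowest in 6. The summed FPKM of the 25 was 89.2 in DSS replicate 3 and 75 in control replicate 3, against 33.8 to 50.5 in the other 4 libraries. For the 11 it was 170 and 200 in these libraries, against 175 to 272 in the others, where 272 belongs to DSS replicate 1. As the median FPKM of all genes was also highest in these 2 libraries, members were placed among all genes by percentile. The median percentile of the 41 members was 63.6, 60.1 and 61.0 in control replicates 1, 2 and 3 and 61.2, 57.3 and 60.8 in DSS replicates 1, 2 and 3. By this median over the 41 the libraries numbered 3 no longer stood above the others, but the level classes differed. For the 11 most abundant members control replicate 3 was highest at 86.8 and DSS replicate 3 lowest at 77.4. For the 25 members these 2 libraries were at 60.4 and 58.4, against 55.2 to 61.6 in the others. For the 5 weakest they were at 37.2 and 35.5, against 36.7 to 56.0 in the others. The part of the library-wide low-level signal in the values of single members was not tested.

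**Figure D4:**
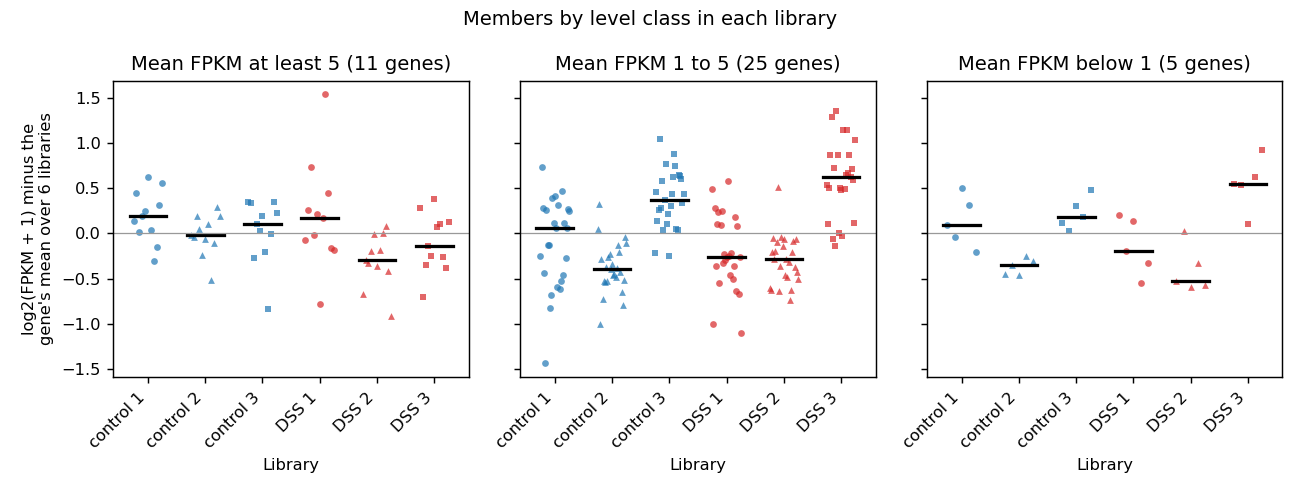
Deviation of each gene from its own mean over 6 libraries, on log2(FPKM + 1) (vertical axis), in each library (horizontal axis), with 1 point per gene and a bar at the median, for 11, 25 and 5 genes by mean level. In the middle class the medians are 0.38 in control replicate 3 and 0.62 in DSS replicate 3, while in the most abundant class they are 0.10 and −0.15.

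Without the 2 libraries numbered 3, 28 members reached a mean of 1 FPKM. Of these, 0 passed (lowest limma adjusted p = 0.357, where 0.0768% of all genes tested passed), and 5 had an unadjusted p under 0.05, where 10.1% of all genes tested did. The median log2 change was −0.12. In 9 of the 28 (32.1%, where 25.8% of all genes tested did so) both DSS libraries lay below both controls. These were Ccna2, Top2a, Foxm1, Incenp, Tpx2, Kif23, Mki67, Ccnb2 and Bub3. In 5 (17.9%, where 18.4% did so) they lay above, and these were Ube2c, Cdc25c, Plk1, Nusap1 and Pttg1. The log2 changes there were −1.34 for Ccna2, −0.93 for Top2a, −0.85 for Incenp, −0.46 for Mki67, −0.59 for Kif23 and 1.18 for Ube2c. Those of Ccna2, Top2a, Incenp, Mki67 and Ube2c were larger in size than with all 6 libraries, and that of Kif23 was smaller. Ccna2 and Top2a thus kept a sign opposite to that of Ube2c.

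Other genes of the cell cycle were counted from lists named by function. In 8 lists with 158 genes, 140 were tested, 98 had a lower and 42 a higher mean log2 value in DSS, and 0 passed in either direction (lowest limma adjusted p = 0.121). At an unadjusted p under 0.05, 19 were lower and 4 higher, where 5.42% and 3.57% of all genes tested were. The 30 DNA replication genes had a median log2 change of −0.41, with 25 lower. Groups did not overlap, with DSS lower, in 9 of these 30, in 4 of 22 kinetochore and centromere genes, 4 of 18 MuvB, DREAM and E2F genes, 3 of 14 G1 genes, 1 gene each of condensin and cohesin, the anaphase-promoting complex and the CDK1 brakes, and 0 of 13 kinesin and spindle genes. Over all genes tested this share was 9.6%. With DSS higher they did not overlap in 2 MuvB, DREAM and E2F genes, 2 G1 genes, 1 condensin and cohesin gene and 0 of the other lists, where 6.35% of all genes did so. Gins2, a subunit of the replicative helicase, measured 2.90 ± 0.981 and 0.348 ± 0.0986 FPKM (limma adjusted p = 0.25), and the helicase genes Mcm6 and Mcm3 12.1 ± 3.42 and 5.89 ± 0.933, and 14.7 ± 2.85 and 7.49 ± 2.57. Of the mitotic members, 17 of 36 had a lower mean log2 value in DSS (median 0.04). In 4 of the 36 the groups did not overlap, with DSS lower. Among members averaging at least 5 FPKM, 7 of 11 had a lower mean log2 value (median −0.23). In 3 of these 11 the groups did not overlap, with DSS lower. The lists differ in expression level as well as in function, and the difference between them was not tested.

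Closest in function to the members were the other kinetochore and centromere genes, with 16 of 22 lower and a median of −0.23. Mis18a, which licenses centromeres for new CENP-A, measured 17.6, 17.2 and 14.4 FPKM in control and 10.1, 6.45 and 5.04 in DSS (log2 change −1.13 ± 0.26 SE, limma adjusted p = 0.155). Cenpa, whose product it helps load, had nearly equal means, as given above. Bora, an activator of Aurora A and PLK1, measured 5.75 ± 0.749 and 3.94 ± 0.911, and the kinetochore gene Pmf1 18.2 ± 0.835 and 13.4 ± 6.13. Of the other kinesin and spindle genes 8 of 13 were lower (median −0.06). Tacc3, which stabilises kinetochore fibres, measured 8.86 ± 2.45 and 4.10 ± 2.06, Fam83d 8.56 ± 2.72 and 4.27 ± 2.01, and Kif20b 1.51 ± 0.640 and 2.58 ± 0.877. The condensin and cohesin genes had 12 of 16 lower (median −0.12), among them Ncaph2 at 41 ± 0.746 and 31.2 ± 4.97, Ncapd2 at 4.92 ± 0.753 and 3.49 ± 1.81, and the cohesin release factor gene Wapl at 12.4 ± 1.79 and 9.65 ± 2.1. Subunits of the anaphase-promoting complex, the machine that Cdc20 and Ube2c serve, had 9 of 17 lower (median −0.13). Among them Anapc5 measured 41.8 ± 0.86 and 31.6 ± 6.76, Anapc2 41.3 ± 4.95 and 32.1 ± 12.4, and Fzr1, which encodes the CDH1 activator, 16.9 ± 1.68 and 13.3 ± 5.27.

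Regulators upstream of mitosis went both ways. Of the MuvB, DREAM and E2F genes, which include the complexes that bind the CHR, 12 of 18 were lower (median −0.13). Rbbp4, a MuvB subunit, measured 75.3, 61.2 and 71.3 FPKM in control and 30.6, 47.8 and 37.9 in DSS (log2 change −0.84 ± 0.22 SE, limma adjusted p = 0.201), with no overlap. Lin54, the MuvB subunit that contacts the CHR, measured 8.53 ± 1.85 and 4.28 ± 0.822, and E2f5 5.31 ± 0.488 and 8.76 ± 0.590. Of the G1 cyclins and CDK inhibitors 9 of 14 were lower (median −0.12). Btg2, an antiproliferative gene, measured 242, 263 and 274 in control and 579, 485 and 475 in DSS (0.98 ± 0.20 SE, limma adjusted p = 0.121). Cdkn2d, which encodes the CDK4 and CDK6 inhibitor p19, measured 24.6 ± 2.13 and 46.8 ± 11.7, and Cdk4 61.3 ± 0.597 and 42.4 ± 8.70. Among the CDK1 brakes and mitotic exit genes 7 of 10 were lower (median −0.18). The PP2A subunit gene Ppp2r2a measured 47.5 ± 3.27 and 34.0 ± 3.16, the PP2A inhibitor gene Ensa 32.3 ± 6.69 and 24.9 ± 10.5, and Wee1, which encodes the kinase that holds CDK1 inactive, 4.67 ± 0.871 and 6.01 ± 0.6.

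**Figure D5:**
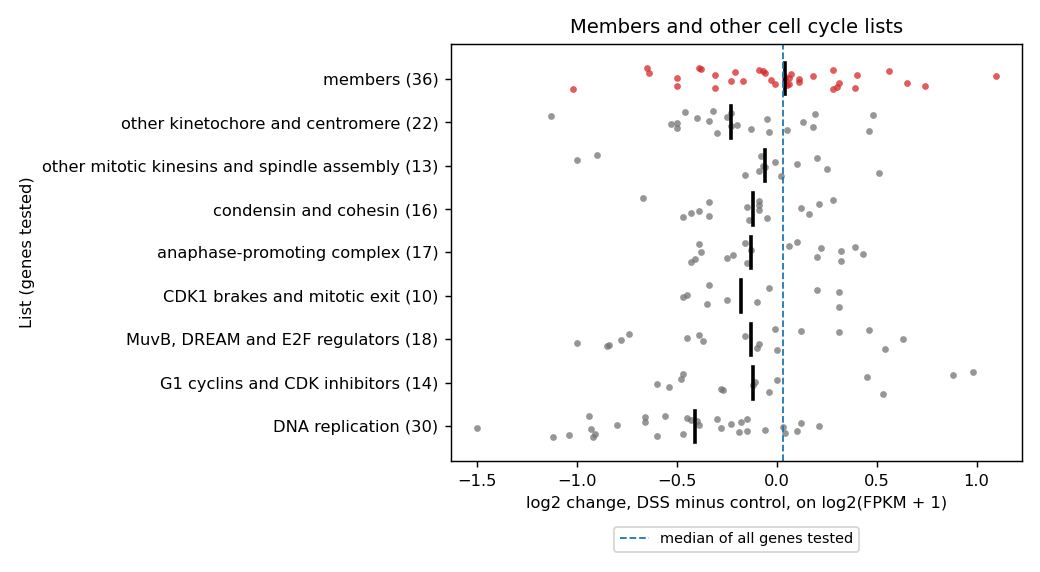
Log2 change (horizontal axis, DSS minus control on log2(FPKM + 1)) of each tested gene in the 41-gene set (members, red) and in 8 other cell cycle lists (grey), with a black bar at each median and a dashed line at the median of all genes tested. The members' median is 0.04 (−0.23 in the 11 averaging at least 5 FPKM) and that of DNA replication genes −0.41. The lists differ in expression level.

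The sorted cells carried ILC2 transcripts in both groups, and 14 ILC2 markers summed to 4657 to 5320 FPKM in control and 3512 to 4898 in DSS libraries, with Ptgdr2 at 0 in 1 library. The 2 most abundant were Hes1, at 1490, 1303 and 1114 in control and 2090, 1131 and 874 in DSS, and Areg, at 1159, 1066 and 988 and at 1299, 1030 and 806. These 2 overlapped between the groups. Of the 13 markers tested, 11 had a lower mean log2 value in DSS, where 46.9% of all genes tested did. In 7 all DSS libraries lay below all controls, where 9.6% of all genes did so. The 7 are named with their values in view. They include the lineage factor genes Gata3 (859 ± 22.8 and 538 ± 217) and Rora (154 ± 16.7 and 78.3 ± 15.9), Icos (293 ± 10.5 and 163 ± 27.9) and Il2ra (109 ± 1.27 and 66.8 ± 4.64), and also Nmur1, Il5 and Il13. The receptor genes Il17rb (255 ± 12.6 and 307 ± 56.5) and Il7r (148 ± 11.1 and 155 ± 15.7) overlapped and had a higher mean log2 value in DSS. Klrg1 (266 ± 11 and 222 ± 73.9) and Il1rl1 (54.8 ± 7.68 and 44.6 ± 3.65) had a lower one and overlapped as well. Of the 13, 1 passed, the cytokine gene Il5 at 359 ± 11.5 and 66 ± 7.5 (limma adjusted p = 8.66e-04, where 0.148% of all genes passed as lower). Markers of other cells also moved with the groups. The 6 B and plasma cell markers in the table summed to 26.6 to 39.1 FPKM in control and 49.7 to 291 in DSS libraries, with 2 of them at 0 in some library. Jchain, the immunoglobulin joining chain, was at 164 and 146 in DSS replicates 1 and 2, at 27.7 in DSS replicate 3 and at 8.98 to 19.2 in control. Mzb1, a plasma cell chaperone gene, was at 102, 56.7 and 7.37 in DSS and at 0.708 to 4.27 in control. DSS replicate 1 was the highest library for 5 of the 41 mitotic genes (Cks2, Pttg1, Ube2c, Cdc20 and Birc5) and the lowest for 6. DSS replicate 2 was the highest for 1 and the lowest for 11. Among the 11 members averaging at least 5 FPKM, DSS replicate 1 was the highest for 4 and the lowest for 1. Of these 11, DSS replicate 2 was the highest for 0 and the lowest for 4. The 12 epithelial markers summed to 20.5 to 39.3 in control and 54.1 to 57.8 in DSS, with 4 at 0 in some library. The 10 neutrophil markers summed to 3.15 to 7.86 and 66.6 to 106, with 7 at 0 in some library. Most of that sum in DSS came from S100a9 (1.05 ± 0.426 and 40.8 ± 4.1), S100a8 (0.58 ± 0.654 and 28.1 ± 4.08) and Retnlg (0.556 ± 0.512 and 12 ± 6.56). These were the 3 neutrophil markers that passed as higher (limma adjusted p of 8.45e-05, 8.56e-04 and 0.0452), where 0.0738% of all genes tested did. The defining marker Ly6g was at 0 in 1 control and 2 DSS libraries and at most 0.414 FPKM, and Mmp9 measured 1.28 ± 0.658 and 0.842 ± 0.769. The 10 macrophage markers summed to 13.9 to 18.2 and 20.3 to 46.7, and the 6 T cell markers to 23.2 to 32 and 21.7 to 62.6. The sums were 13.8 to 19 and 5.74 to 18.4 for dendritic cells, 59.9 to 101 and 63.7 to 80 for NK cells and ILC1s, 235 to 341 and 79 to 339 for ILC3s, and 17.8 to 31.3 and 10.1 to 25.1 for stroma and endothelium. Pan-leukocyte genes summed to 1418 to 1610 and 1236 to 2145. The part of these cells in the levels of the mitotic genes was not tested.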

How the data were processed

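RNA was extracted with TRIzol, and cDNA and paired-end libraries were made with SMART-Seq HT and Nextera XT kits, which do not mark strand, per the labels' protocols. Per the submitters' processing notes, the tools include cutadapt 1.9 and HISAT2 2.2.1, and the build is mm10. What counted the fragments, on which annotation and gene lengths, is not given in the sources used here. FPKM values were deposited by the authors for 23268 genes, 1 column per library. Groups come from sample titles. Within each gene the values were whole multiples of 1 step per library (tolerance 0.001), in 100.0% of 13957 genes above 0 in all libraries, which gave whole fragments and depths.

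The test was limma 3.58.1 in R 4.3.3, two-sided, with a trend of variance on mean. It was fitted to log2(FPKM + 1) of genes averaging 1 FPKM or more, Benjamini-Hochberg adjusted over all genes tested, with a threshold of 0.05 and no covariate. It was tried on simulated data with known changes, drawn without the low-level signal of the libraries numbered 3. That trial cannot show how the test performs on weak genes in these libraries. The members and lists were chosen with earlier results of these data known. All members are named, with up to 3 genes of each cell cycle list by smallest p and up to 2 markers of each cell type by level. Some ILC2 and neutrophil markers are named beyond this, after their values were seen. Same-numbered libraries deviated together from their group means (correlations of 0.189, 0.262 and 0.545). By the rule used (each over 0.1) they were taken as pairs in the replicate block only, and the main fit used no pairing. Control 1 correlated more with DSS 2 (0.345) than with DSS 1, and control 2 correlated with DSS 1 at 0.101. The rule therefore does not single out same-numbered libraries. No label states a pairing. Gene coordinates and overlaps are from GENCODE M21 (GRCm38, the same build as mm10), 1-based, and 12 of the 41 members share exonic bases with another gene. Alternatives were other pseudocounts, filters, scalings and variance settings, the replicate block, voom on whole fragments, and fits without single libraries. A planned comparison of protein sequences between paralogs was not made. Figures used matplotlib 3.10.9 and Python 3.11.15.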

Additional observations from a re-analysis of the deposited data

How the results depend on the processing

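There were 20 alternatives (19 planned), and weak members could be fitted only in some. Of the 36 tested members, 15 kept the sign of their log2 change wherever they were fitted (10 lower, 5 higher), 7 of these in all 20 and the others in 17 to 19, and 21 did not. The median log2 change of the members ran from −0.23 to 0.16. No member passed in 17 alternatives. With REML library weights 10 members passed as lower and 2 as higher, Cks2 among the lower at a log2 change of −0.37 in place of 0.05, with 3286 genes called in all against 27. With gene-by-gene weights, chosen after seeing the data, 2 members passed as lower and 635 genes were called. The cause was not tested. The count of genes called was 14 with equal totals, 9 with median-of-ratios scaling, 4 with no trend and 8 without both libraries numbered 3. Without those libraries, 9 of 28 members were separated as lower (32.1%, where 25.8% of all genes tested were). As higher, 5 were (17.9%, where 18.4% were). With a mean of at least 5 FPKM, which tests fewer genes, 7 of 11 members were lower (63.6%, median −0.23). In the main fit 17 of 36 were (47.2%, median 0.04). Leaving out 1 library gave 5 to 435 genes called, 0 to 1 members called lower, 4 to 9 separated as lower and 1 to 5 as higher. The shares over all genes moved too. They reached 21.8% lower without DSS replicate 3 and 16.2% higher without control replicate 3, the fits with 9 and 5 members.

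With the replicate block, taking same-numbered libraries as pairs, 0 members passed (lowest limma adjusted p = 0.2) and 22 genes were called, so the pairing changed no call among members, though control 1 deviated more like DSS 2 than like DSS 1. Counts as low as 4 fragments limit the weakest members.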
